A study of Mus musculus with 3 samples.

Results

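Sox2, Neurog1, Neurod1, Insm1, Foxn4, Hes6 and Sox11 are transcription factors of neuronal progenitors and precursors, and they were described here across the cell classes of the mouse vomeronasal organ (VNO) in 3 single cell RNA-seq libraries. The 7 genes were taken by name from the 32285 features of the tables, with earlier results of these data known. Counts of them set beside all genes are therefore descriptions only. All 7 had reads in every library. Each library was a 10x Genomics 3′ library of dissociated VNO cells from male mice on a mixed C57 BL/6J and 129P2/OlaHsd background, and each group had 1 library. The P10 control carried 1 OMPCre allele (OMPCre Heterozygous) and was taken at postnatal day 10. The P10 mutant (OMPCreR26AP2e Double Heterozygous) carried OMPCre and R26AP2e at the same age, and the 3-month mutant had that genotype in adults, with a title of P90 and an age label of 3 months. All 3 groups therefore carried OMPCre. The Omp promoter drives Cre in neurons that express Omp, and the R26AP2e transgene encodes the transcription factor AP-2ε (Tfap2e). By this design the transgene should switch on after the stages in which the 7 factors are mainly known. Where the transgene was on in these libraries was not tested. The number of animals behind each library is not given in the sources used here.

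The vomeronasal epithelium makes sensory neurons throughout life. Progenitors at the base of the lineage divide and give rise to Neurog1 and Neurod1 precursors, which leave the cell cycle and become apical neurons, marked by Meis2 and Gnai2, or basal neurons, marked by Bcl11b, Tfap2e and Gnao1. Proneural factors are basic helix-loop-helix proteins that bind E-box motifs in DNA, activate the neuronal program and switch on Notch ligands, while Notch effectors of the Hes family oppose them. Sox2 is a SoxB1 factor of stem and progenitor cells, and Sox11 is a SoxC factor of newborn neurons.

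Promoter sequences are shown for the members whose windows held a motif of such factors, since Neurog1, Neurod1 and Hes6 belong to the helix-loop-helix family and Sox2 and Sox11 to the Sox family. The 250 bases before each RefSeq transcription start (GRCm38.p6) were searched on both strands for the E-box CANNTG, the Sox motif ATTGTT and the Rbpj motif TGGGAA. Hes6 held 3 E-boxes, starting 220, 171 and 164 bases before the start, and the last 2 lie side by side without overlap at chr1:91414170-91414229 on the minus strand. A second Hes6 start in RefSeq had 1 E-box, 150 bases before it. The Neurod1 E-box starts 242 bases before the start (chr2:79456827-79456886, minus strand). Sox11 held E-boxes 210 and 32 bases before the start, the nearer in chr12:27342719-27342778 on the minus strand, with the same 6 letters as that of Neurod1. The Sox motif of Neurog1 starts 43 bases before the start (chr13:56252191-56252250, minus strand). In the 60-base stretches below, printed 5′ to 3′ on the gene's strand, capitals mark the matches.
Hes6: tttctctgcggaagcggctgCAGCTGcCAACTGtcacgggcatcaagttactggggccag
Neurod1: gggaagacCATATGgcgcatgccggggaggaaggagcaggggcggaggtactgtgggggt
Sox11: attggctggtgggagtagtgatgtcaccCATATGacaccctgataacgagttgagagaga
Neurog1: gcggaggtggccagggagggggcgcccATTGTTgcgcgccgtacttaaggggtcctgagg
The windows of Sox2, Foxn4 and Neurog1 had no match to CANNTG, and no member window had a match to TGGGAA. Of 32851 RefSeq promoter windows of this length, 66.2% held an E-box, 9.42% the Sox motif and 21.6% the Rbpj motif, so an E-box alone does not set a promoter apart. Insm1 had no promoter entry.

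Sox2 (ENSMUSG00000074637) lies at chr3:34650405-34652461 on the plus strand of GRCm38, inside the longer noncoding gene Sox2ot on the same strand, so reads from the shared stretch cannot be told apart by strand. Neurog1 (ENSMUSG00000048904) is at chr13:56250478-56252163, Foxn4 (ENSMUSG00000042002) at chr5:114254164-114273807, Hes6 (ENSMUSG00000067071) at chr1:91411483-91414038 and Sox11 (ENSMUSG00000063632) at chr12:27334264-27342574, all on the minus strand. Neurod1 (ENSMUSG00000034701, chr2:79452521-79456751, minus strand) overlaps Cerkl on the same strand. Insm1 (ENSMUSG00000068154) is at chr2:146221921-146225020 on the plus strand.

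The tables held 27359 barcodes, from 8202 to 10293 per library, with 70074800 to 83870584 unique molecular identifiers (UMIs, each a count of 1 captured transcript) in all. Barcodes with 200 to 9000 genes and at most 10% mitochondrial UMIs were kept, which left 4795 (P10 control), 3956 (P10 mutant) and 6960 cells (3-month mutant), at median depths of 10236, 10766.5 and 5010.5 UMIs. Of these, 536, 234 and 152 cells were placed in the vomeronasal neuron lineage by markers that left out all 7 factors. Pairs of libraries shared 4 to 9 kept barcodes and no lineage barcode. Levels are given as CPM, the UMIs of a gene per 1000000 UMIs summed over all cells of a group, with an exact Poisson 95% interval. Shares of cells have exact Clopper-Pearson intervals. All intervals cover counting error only, and with 1 library per group no difference between groups could be tested against biological replicates. Genotype and library at P10, and age and library among mutants, cannot be told apart.

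Progenitors (48, 25 and 10 cells in the P10 control, P10 mutant and 3-month mutant) were named from a list of markers that included Kit, Lgr5 and Mybl1. Precursors (110, 49 and 18 cells) carried the markers Nhlh1, Nhlh2, Ebf2 and Lhx2 among others, and fell into a dividing cluster (29, 16 and 6 cells), a Meis2-side cluster (60, 16 and 11) and a Bcl11b-side cluster (21, 17 and 1). Meis2 was at 1155 CPM in the control Meis2-side cluster and 108 CPM in the Bcl11b-side cluster. Immature vomeronasal sensory neurons (VSNs; 202, 84 and 63 cells) had Gap43 at 1369, 1512 and 1597 CPM, and mature VSNs (176, 76 and 61 cells) had Omp at 452, 390 and 449 CPM. Of the cell types such cells could be mixed with, the sustentacular marker list summed to 73.1, 99.6 and 84.2 CPM in progenitors, and a ciliated list to 172, 104 and 223 CPM in precursors, with Tmem212 at 0. The olfactory neuron list stayed at or under 12.5 CPM in progenitors and precursors, with Cnga2 and Stoml3 at 0. Its genes are those of differentiated olfactory neurons, so it cannot tell olfactory from vomeronasal precursors. The olfactory neuron cluster itself had Meis2 at 1082 CPM, and the share of olfactory cells among Meis2-side precursors was not tested. The part of signal from other cell types in the members' values was not tested either.

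**Figure D1:**
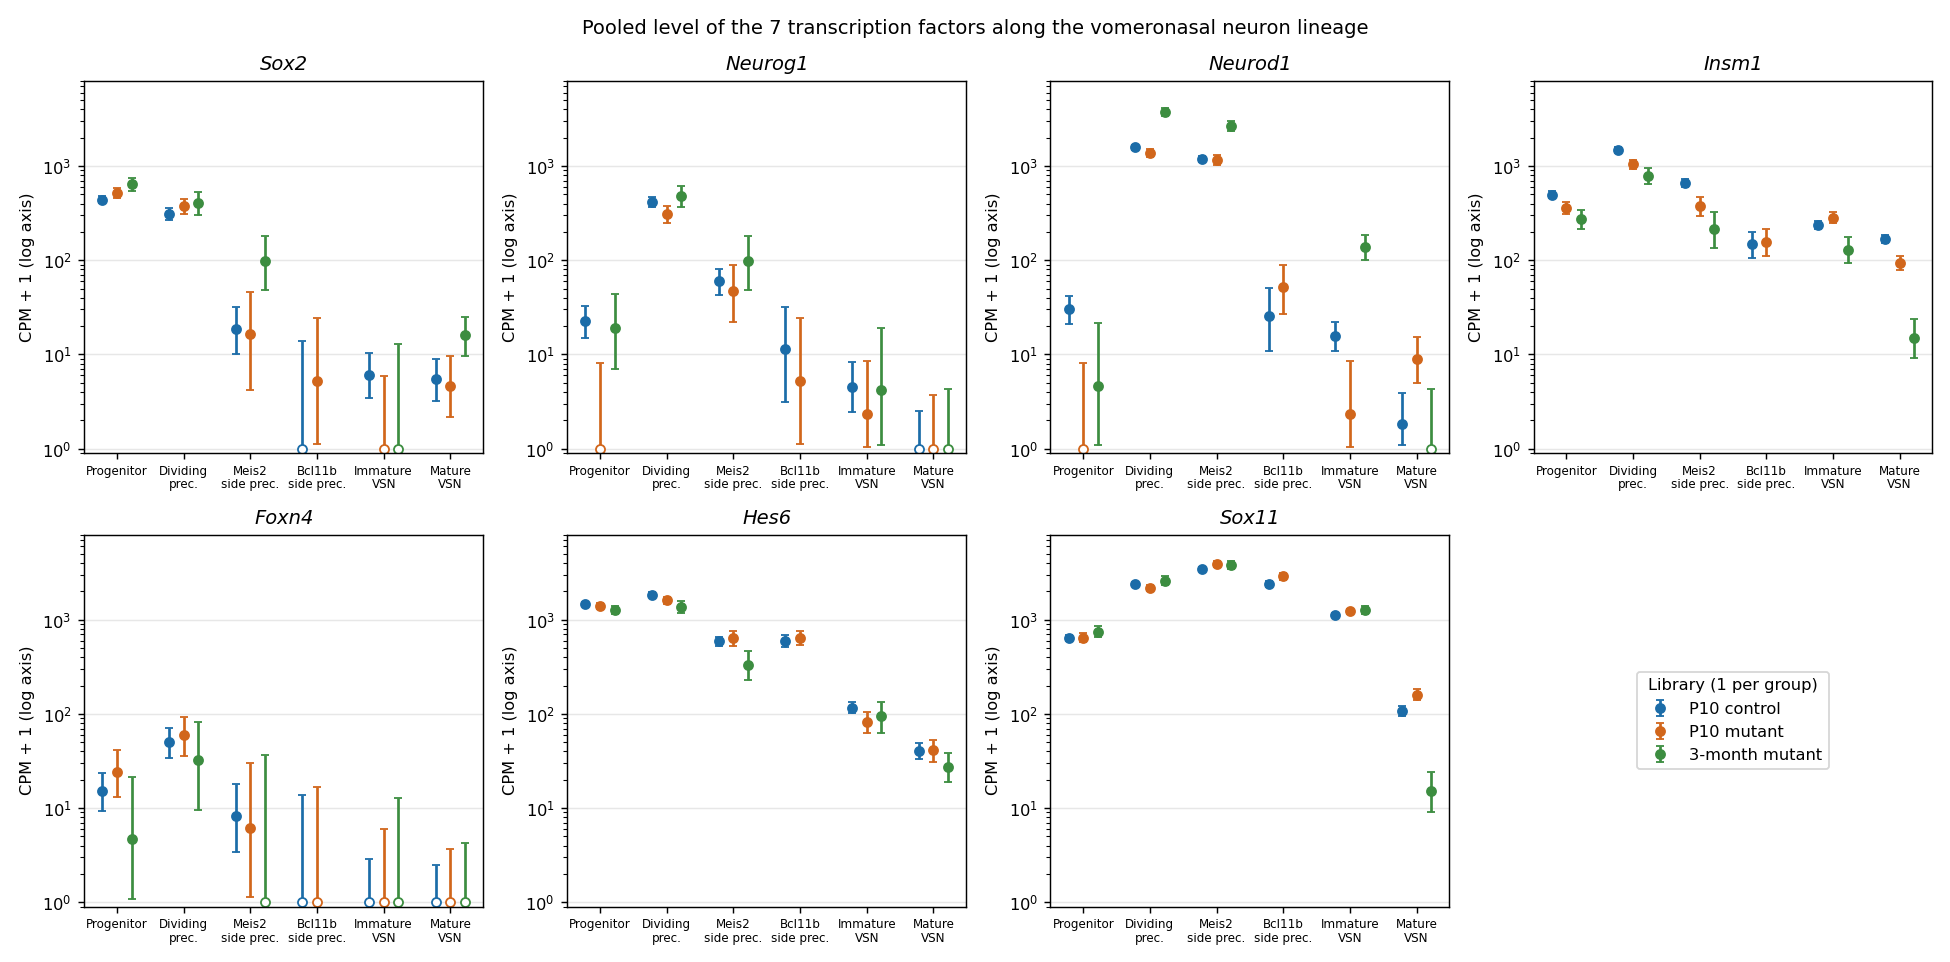
Pooled level of each factor (CPM + 1, log axis) in 6 groups of the lineage, one panel per gene and one colour per library; bars are exact Poisson 95% intervals, open circles are groups with no UMI, and groups under 5 cells are left out. Sox2 falls from 436 CPM in control progenitors to 5.05 CPM in immature VSNs, while Sox11 is at 640 CPM in progenitors, 3450 CPM in Meis2-side precursors and 107 CPM in mature VSNs.

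Within the neuron lineage all 7 factors had their highest level in progenitors or precursors in each of the 3 libraries, but their order differed. No share of all genes was set beside that count. From progenitors to dividing precursors 5 of 7 factors were at least 2-fold higher in the control and 5 of 7 in the P10 mutant (Neurog1, Neurod1, Insm1, Foxn4 and Sox11), beside 12.2% and 10.1% of all genes with at least 20 UMIs. From dividing to Meis2-side precursors 5 of 7 were at least 2-fold lower in the control (Sox2, Neurog1, Insm1, Foxn4 and Hes6) and 4 of 6 in the P10 mutant, beside 10.8% and 12.8%. Sox2, Hes6 and Insm1 were already present in progenitors. Neurog1, Neurod1 and most Sox11 appeared with the dividing precursors, Neurog1 was lower in Meis2-side and lower still in Bcl11b-side precursors of the P10 libraries, and Insm1 and Sox11 were still detected in immature neurons.

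Sox2, which maintains stem and progenitor cells, was at 436 CPM in control progenitors (525 UMIs, 95% interval 400 to 475, in 47 of 48 cells). It was at 517 CPM in P10 mutant progenitors (265 UMIs, in 23 of 25 cells) and at 640 CPM in 3-month progenitors (175 UMIs, in 10 of 10 cells). Sox2 was thus found in nearly every progenitor of each library. Dividing precursors kept much of it, at 311, 371 and 407 CPM in the P10 control, P10 mutant and 3-month mutant, in 26 of 29, 15 of 16 and 6 of 6 cells. The control ratio of dividing precursors over progenitors was 0.712 (0.599 to 0.844), and that of the P10 mutant 0.718 (0.572 to 0.897). Past this stage the level was far lower, with 12 UMIs (17.6 CPM) in 60 control Meis2-side precursors and none in 21 Bcl11b-side precursors, which allows up to 10.4 CPM. Immature VSNs had 10 UMIs (5.05 CPM) in the control and none in either mutant library, under the 16.7 to 21 CPM of immune, endothelial and mural cells, which should lack the gene. Thinning each cell to 2000 UMIs left Sox2 in 51.1%, 60% and 50% of progenitors and in 2.09%, 1.99% and 1.57% of those background cells. The few Sox2 UMIs in immature and mature VSNs at P10 are therefore read as background.

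Neurog1, the proneural factor of olfactory and vomeronasal precursors, peaked in dividing precursors. There it was at 416 CPM in the control (246 UMIs, 365 to 471, in 29 of 29 cells), 307 CPM in the P10 mutant (95 UMIs, 248 to 375, in 15 of 16 cells) and 478 CPM in the 3-month mutant (61 UMIs, 366 to 614, in 6 of 6 cells). Nearly every dividing precursor thus held it. Control progenitors had 26 UMIs (21.6 CPM) in 7 of 48 cells, P10 mutant progenitors had none of 25 cells with a UMI, which allows up to 5.86 CPM, and 3-month progenitors had 5 UMIs (18.3 CPM). Over progenitors, Neurog1 in dividing precursors was 19.2-fold higher in the control (12.8 to 30) and at least 41.8-fold higher in the P10 mutant. In Meis2-side precursors Neurog1 was at 58.6, 46.6 and 97.6 CPM (40, 9 and 10 UMIs, in 19 of 60, 7 of 16 and 3 of 11 cells), 0.141 times the dividing precursors in the control (0.0984 to 0.198). In Bcl11b-side precursors only 3 UMIs (control) and 1 UMI (P10 mutant) were found. Mature VSNs had no Neurog1 UMI in any library, which allows up to 1.21, 2.19 and 2.64 CPM, and immune, endothelial and mural cells had at most 0.346 CPM.

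Neurod1, which drives precursors to differentiate, also was high from the dividing precursors on, and stayed so in the Meis2-side cluster. Control progenitors had 35 UMIs (29.1 CPM) in 6 of 48 cells, 15 of them in 1 cell, P10 mutant progenitors had none, and 3-month progenitors had 1. Dividing precursors were at 1586, 1376 and 3753 CPM (939, 426 and 479 UMIs), in the control 54.5-fold over progenitors (38.9 to 78.8). Meis2-side precursors stayed close to that, at 1186, 1161 and 2645 CPM, and the control ratio to dividing precursors was 0.747 (0.680 to 0.822). The Bcl11b-side precursors did not share this level, with 7 UMIs (24.4 CPM) in 21 control cells and 12 UMIs (50.7 CPM) in 17 P10 mutant cells. Immature VSNs had 29 UMIs in the control, all in 14 cells of the Meis2-side cluster 4, at 32.8 CPM there. In the 3-month library 37 of 43 immature UMIs lay in 7 cells of cluster 29, a cluster of shallow cells (median 1197 UMIs) found in that library alone. Neurod1 in mature VSNs was at 0.808 CPM in the control, 8.03 CPM in the P10 mutant, where 10 of 11 UMIs came from 1 cell, and without a UMI in the 3-month mutant. Background cells had at most 2.08 CPM.

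Insm1, a zinc-finger factor that promotes the step from self-renewing to neurogenic division, was present from progenitors on. Progenitors were at 495, 361 and 271 CPM (596, 185 and 74 UMIs), dividing precursors at 1485, 1043 and 783 CPM, and Meis2-side precursors at 664, 373 and 215 CPM. Dividing precursors were highest of these 3 groups in each library. Meis2-side precursors lay above progenitors in the control, while in both mutant libraries their intervals overlap. Bcl11b-side precursors were lower, at 146 CPM (105 to 198) in the control and 156 CPM (110 to 215) in the P10 mutant. Insm1 did not end with the precursors: immature VSNs were at 235, 282 and 128 CPM, and mature VSNs at 168, 93.4 and 14.1 CPM. Background cells had 3.34, 1.38 and 0.688 CPM, so the neuronal values at P10 lie well above free RNA.

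Foxn4, a forkhead factor known from retinal progenitors, was rare and confined by its counts to early cells of the lineage. It had 17, 12 and 1 UMIs in progenitors (14.1, 23.4 and 3.66 CPM) and 29, 18 and 4 UMIs in dividing precursors (49.0, 58.1 and 31.3 CPM). These UMIs came from 13 of 29 control and 7 of 16 P10 mutant dividing precursors. Meis2-side precursors had 5, 1 and 0 UMIs. No UMI was found in Bcl11b-side precursors, immature VSNs or mature VSNs of any library, which in the control allows up to 10.4, 1.51 and 1.21 CPM. At this depth Foxn4 was not detectable past the precursor stage, and after thinning to 2000 UMIs none of 108 control precursors kept a UMI.

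Hes6, a Hes family member that promotes rather than opposes neurogenesis, had a level in progenitors (1477, 1392 and 1274 CPM) close to that of dividing precursors (1851, 1605 and 1371 CPM). The ratio of the latter over the former was 1.25 (1.16 to 1.35) in the control and 1.15 (1.03 to 1.29) in the P10 mutant. Hes6 then was lower on both sides alike, at 588 and 599 CPM in control Meis2-side and Bcl11b-side precursors and at 632 and 642 CPM in the P10 mutant. Immature VSNs had 116, 80.7 and 93.2 CPM and mature VSNs 39.6, 40.1 and 26.4 CPM, against 27.4, 19.6 and 14.7 CPM in background cells. The mature level was thus not far above background in any library.

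Sox11, which marks newborn neurons, was at 640, 646 and 747 CPM in progenitors and rose to 2409, 2189 and 2593 CPM in dividing precursors. Dividing precursors were 3.76-fold over progenitors in the control (3.45 to 4.11) and 3.39-fold in the P10 mutant (2.97 to 3.88). Every precursor of each library had a Sox11 UMI. The highest level was in Meis2-side precursors, at 3450, 3887 and 3807 CPM, with Bcl11b-side precursors at 2392 CPM in the control and 2885 CPM in the P10 mutant. Immature VSNs kept 1133, 1231 and 1259 CPM. Mature VSNs had 107 CPM (266 UMIs), 158 CPM (217 UMIs) and 14.1 CPM (16 UMIs), against 22.2, 24.6 and 2.06 CPM in background cells.

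The first comparison asked which factors are higher before neuronal maturation than after it begins. The immature class took in clusters 4 and 11, which had more precursor than immature markers among their 10 leading genes. A factor was counted where both groups together held at least 20 UMIs and the pooled levels differed by 2-fold or more. In the control 7 of 7 factors were higher in precursors than in immature VSNs, beside 13.6% of all genes compared. The ratios were 24.9 for Sox2 (13.2 to 52.7), 52.4 for Neurog1 (25.1 to 132), 76.8 for Neurod1 (53.3 to 115), 9.21 for Hes6 (8.02 to 10.6), 3.74 for Insm1 (3.37 to 4.17) and 2.52 for Sox11 (2.40 to 2.66). Foxn4 had 34 UMIs against none, at least 11.1-fold higher. In the P10 mutant 6 of 6 factors with enough UMIs were higher (13% of all genes), with Hes6 at 12.9, Sox11 at 2.32 and Insm1 at 2.07 (1.75 to 2.45). Sox2 there was at least 31.9-fold higher. Neurog1 and Neurod1 stood at 105 and 662 UMIs against 1 each. Their ratios were 106 (18.5 to 4209) and 666 (119 to 26332). In the 3-month mutant 6 of 6 were higher (14.8% of all genes), from 2.46 for Sox11 and 3.88 for Insm1 to 90.8 for Neurog1. Neurod1 there was at 22 (16.2 to 30.7), or 46.8 without 1 immature cell that held 23 of 43 UMIs. Sox2 was at least 20.6-fold higher. Sox11 and Insm1 had the lowest ratios in every library, so these 2 outlast the others. Where single cells were sorted by marker detection and not by cluster, Sox11 turned slightly lower in precursors, with ratios of 0.770, 0.914 and 0.987.

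From immature to mature VSNs, 3 of 5 factors with enough UMIs were at least 2-fold higher in immature cells of the control, beside 11.1% of all genes. Sox11 had a ratio of 10.5 (9.28 to 12), Hes6 2.93 (2.30 to 3.75) and Neurod1 18.1 (4.58 to 157, from 29 UMIs against 2), while Insm1 was at 1.40 (1.22 to 1.60) and Sox2 at 1.14 (0.432 to 2.95). In the P10 mutant 3 of 3 passed (9.77% of all genes): Sox11 at 7.77 (6.69 to 9.05), Insm1 at 3.02 (2.42 to 3.80) and Hes6 at 2.01 (1.37 to 2.95). In the 3-month mutant 4 of 4 passed (10.9% of all genes). Sox11 was at 89.3 (54.3 to 158), Insm1 at 9.11 (4.99 to 17.4) and Hes6 at 3.52 (2.04 to 6.07). Neurod1 had 43 UMIs against none, at least 40.7-fold. Without the cell with most UMIs it had 20 UMIs and was at least 18.2-fold higher. The fall of Sox11 was thus shared by the 3 libraries, and that of Insm1 past 2-fold was seen in the mutant libraries only. The difference in Insm1 between libraries was not tested. With every cell thinned to 2000 UMIs, 1 factor of the 3-month mutant passed. Thinning left 31 immature and 59 mature cells there, and the minimum of 20 UMIs still applied. A factor can therefore go uncounted for lack of UMIs, without a smaller ratio.

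Other genes of the pathway were taken from a list of 56 neurogenesis genes (Notch ligands, receptors and targets, helix-loop-helix factors, Id and Sox genes). The list too was chosen with earlier results of these data known. In the control 20 of 33 measured members were at least 2-fold higher in precursors than in immature VSNs, beside 13.6% of all genes, and 1, Id3, an inhibitor of helix-loop-helix factors, was lower. The median log2 ratio of the list was 1.54, beside 0.06 over all genes compared. Among its largest ratios were Mfng and Lfng, which modify Notch receptors, at 552 and 154 UMIs against 2 each, for ratios of 350 (96.5 to 2900) and 97.7 (26.6 to 814). Hes5, a Notch target, had a ratio of 63.2 (24.3 to 234), Eya1, a transcriptional cofactor, 36.2 (13.7 to 135) and Foxm1, a factor of dividing cells, 27.9 (4.51 to 1153, from 22 UMIs against 1). In the P10 mutant 17 of 29 were higher (13% of all genes) and 1, Hes1, lower, and in the 3-month mutant 12 of 19 were higher (14.8%) and 1, Myt1l, lower. From immature to mature VSNs 11 of 21, 8 of 16 and 5 of 14 members of the list were at least 2-fold higher in immature cells in the 3 libraries, beside 11.1%, 9.77% and 10.9% of all genes, and 1, Foxn3, was lower at 3 months (2 UMIs against 24).

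A cell was called dividing with at least 2 UMIs and 500 CPM of 10 mitotic and replication genes such as Mki67 and Top2a. By this rule 28 of 48, 14 of 25 and 7 of 10 progenitors were dividing, and 32 of 110, 16 of 49 and 7 of 18 precursors, but 1 of 202, 1 of 84 and 1 of 63 immature VSNs. None of 21 control and 17 P10 mutant Bcl11b-side precursors was dividing, which in the control allows a share of up to 16.1% (upper limit of the exact interval). The limit was near for 10, 6 and 4 precursors, whose levels lay between 250 and 1000 CPM.

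Within control precursors, 5 of 7 factors were at least 2-fold higher in dividing than in non-dividing cells, beside 10.9% of all genes compared. Of the 32 dividing cells 26 lay in the dividing cluster and 6 in the Meis2-side cluster. In the P10 mutant 14 and 2 of 16 did, so division and cluster cannot be told apart here. Sox2 had a ratio of 22 (12.6 to 42.2, from 183 UMIs against 13), Neurog1 5.73 (4.31 to 7.72), Insm1 3.58 (3.19 to 4.02) and Hes6 2.45 (2.22 to 2.71). Foxn4 had 33 UMIs against 1, for a ratio of 51.6 (8.65 to 2101). Neurod1 lay just under 2-fold at 1.94 (1.77 to 2.14), and Sox11 was slightly lower in dividing cells at 0.864 (0.812 to 0.919). In the P10 mutant 4 of 6 factors passed (10.7% of all genes): Neurog1 at 13.1 (6.99 to 27.1), Sox2 at 3.83 (2.55 to 5.88), Insm1 at 2.68 (2.20 to 3.29) and Neurod1 at 2.40 (2.05 to 2.82), while Hes6 was at 1.96 and Sox11 at 0.778. Sox2, Neurog1 and Insm1 passed in both P10 libraries, and Neurod1 and Hes6 sat on either side of the limit. With classes from marker detection Hes6 turned to 0.847 in the control and Insm1 to 0.794 in the P10 mutant, and with each library clustered alone Neurod1 in the P10 mutant turned to 0.973. The 3-month mutant had too few dividing precursors for this comparison. Of the neurogenesis list, 18 of 31 members were higher and 2 lower in dividing control precursors, and 15 of 25 higher and 2 lower in the P10 mutant.

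Within control progenitors the pattern was another. Sox2 did not differ by division, with a ratio of 1.03 (0.855 to 1.24), and neither did Hes6 at 0.886 or Sox11 at 0.933 pass 2-fold. Insm1 was at 1.94 (1.59 to 2.38) in dividing over non-dividing progenitors. The rare Neurog1 and Neurod1 UMIs lay rather in non-dividing progenitors, 17 against 9 and 28 against 7, for ratios of 0.284 (0.111 to 0.673) and 0.134 (0.0494 to 0.314), beside 3.42% of all genes 2-fold lower in dividing progenitors. Sox2 in P10 mutant progenitors was at 1.77 (1.31 to 2.44), Sox11 at 1.46 (1.13 to 1.91) and Insm1 at 0.900.

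The apical and basal branches were compared between the Meis2-side and Bcl11b-side precursor clusters, in whose drawing the 7 factors had no part. By the rule above, 6 of 60 control and 2 of 16 P10 mutant Meis2-side precursors were dividing, against none on the Bcl11b side. In the control Neurod1 was 48.6-fold higher in Meis2-side than in Bcl11b-side precursors (23.5 to 121), Neurog1 5.61-fold (1.79 to 28.4, from 40 UMIs against 3) and Insm1 4.54-fold (3.31 to 6.39), while 13.6% of all genes were higher there by 2-fold. Hes6 was even, at 0.981 (0.819 to 1.18), and Sox11 at 1.44 (1.32 to 1.57). The P10 mutant gave Neurod1 at 22.9 (12.9 to 45) and Insm1 at 2.39 (1.58 to 3.65), beside 7.29% of all genes, with Hes6 at 0.985 and Sox11 at 1.35. With dividing cells left out, an alternative added after seeing the data, Neurod1 was at 47.5, Neurog1 at 5.03 and Insm1 at 3.85 in the control, and Neurod1 at 23.8 and Insm1 at 2.40 in the P10 mutant. In both P10 libraries Neurod1 and Insm1 were thus unequal between these 2 clusters and Hes6 was not. Tfap2e, the basal factor, was at 484 and 249 CPM in the Bcl11b-side precursors of the control and P10 mutant, before Omp appears in the lineage. Of 21 control Bcl11b-side precursors 3 held Neurod1. In its adult data the paper counts Neurod1 cells without Ki67 as apical or basal precursors, by their lineage. It places Tfap2e in maturing basal neurons with Gap43. The Bcl11b-side cluster may therefore not match the paper's basal precursors, which was not tested. The Meis2-side and Bcl11b-side clusters may also stand at unlike steps of maturation, so branch and step cannot be told apart here. The 3-month library had 1 Bcl11b-side precursor.

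By the next stage little of this was left. Control immature VSNs with more Meis2 than Bcl11b plus Tfap2e (86 cells) held all 29 Neurod1 UMIs, and those with more Bcl11b plus Tfap2e (84 cells) held none. It was the only factor past 2-fold, beside 15% of all genes in either direction. Insm1 was at 0.913 (0.752 to 1.11), Hes6 at 1.30 (0.985 to 1.72) and Sox11 at 1.35 (1.24 to 1.47). In the P10 mutant (25 against 46 cells) none of 3 measured factors passed 2-fold (18.4% of all genes). Insm1 was at 0.934, Hes6 at 0.564 (0.279 to 1.07) and Sox11 at 1.09. Tfap2e, used to sort these cells, is also the gene of the mutant's transgene, and its part in the split was not tested. Within the control branches, Neurod1 was 36.1-fold higher in Meis2-side precursors than in Meis2-side immature cluster 4 (25.0 to 54.3; 11.4% of all genes), and Hes6 4.25-fold higher in Bcl11b-side precursors than in Bcl11b-side immature cluster 11 (3.12 to 5.89; 5.6% of all genes). Insm1, by contrast, was at 0.701 in the latter pair (0.471 to 1.03).

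Single cells often held several of the factors at once. Before thinning, the median dividing precursor had UMIs of 6 of the 7 factors in each library, the median progenitor 4, 4 and 4.5, P10 Meis2-side precursors 4, P10 Bcl11b-side precursors 3, and immature and mature VSNs 2 at P10 and 1 at 3 months. Neurog1 and Neurod1 were found together in 29 of 29, 14 of 16 and 6 of 6 dividing precursors of the P10 control, P10 mutant and 3-month mutant. Sox2 and Neurod1 were found together in 26 of 29, 14 of 16 and 6 of 6. Most dividing precursors thus carried the progenitor factor and both proneural factors at once. In progenitors the overlap was small: 5 of 48 control cells, none of 25 P10 mutant cells and 1 of 10 3-month cells held both Sox2 and Neurod1.

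Since deeper cells show more genes, every cell was also thinned to 2000 UMIs. Of 29 control dividing precursors, 12 then held both Sox2 and Neurod1, 14 Neurod1 alone, 1 Sox2 alone and 2 neither. Of 47 control progenitors, 23 held Sox2 alone, 1 both, 1 Neurod1 alone and 22 neither. Of 58 Meis2-side precursors, 40 held Neurod1 alone, 2 both, 1 Sox2 alone and 15 neither, and all 21 Bcl11b-side precursors held neither. The P10 mutant gave the same order, with 12 Sox2 alone of 20 progenitors, 3 both of 16 dividing precursors and 12 Neurod1 alone of 15 Meis2-side precursors.

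**Figure D2:**
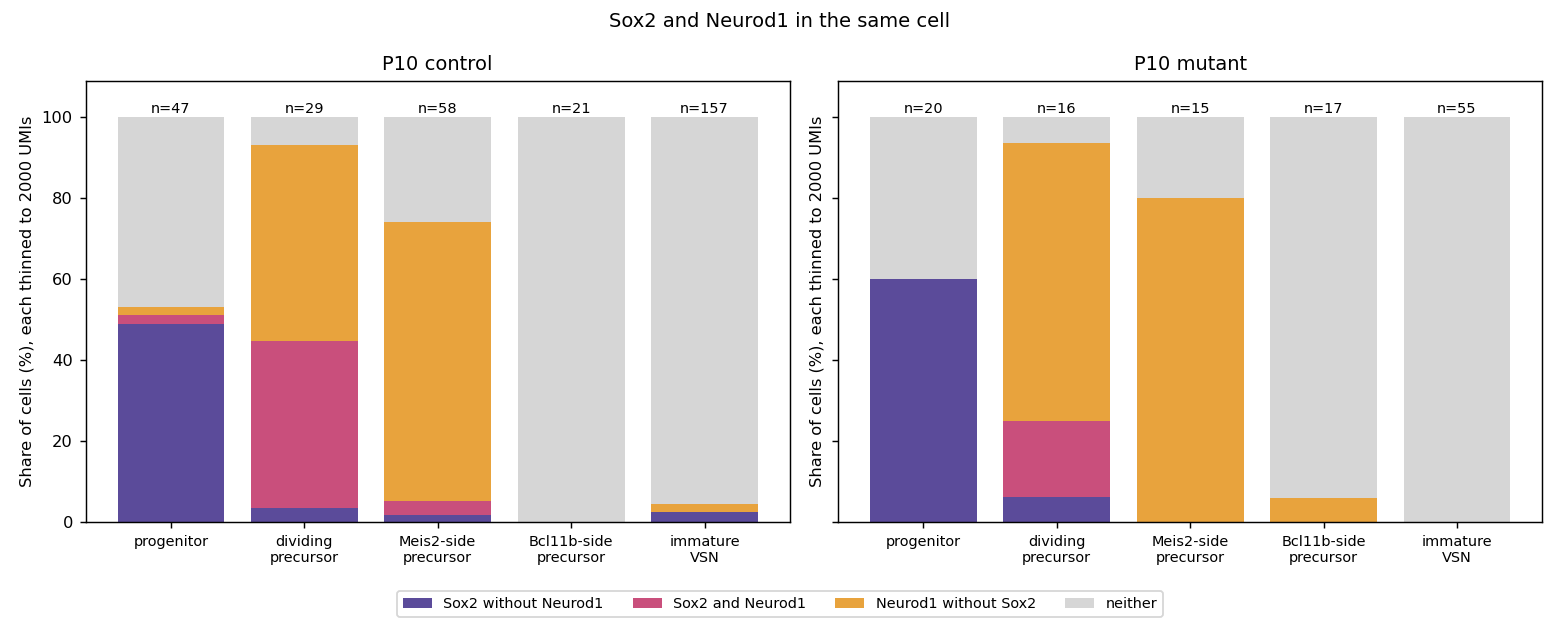
Share of cells (%, each cell thinned to 2000 UMIs) with Sox2 alone, both genes, Neurod1 alone or neither, by group of the lineage, in the P10 control (left) and P10 mutant (right). Cells with both are mostly dividing precursors, 12 of 29 in the control and 3 of 16 in the P10 mutant.

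Of the 21 pairs of factors, 14, 10 and 14 were found together in at least 10% of thinned precursors in the P10 control, P10 mutant and 3-month mutant (108, 48 and 18 cells). This count depends on how often each factor was detected, and no share of all gene pairs was set beside it. Among control precursors Neurod1 and Insm1 shared 48.1% of cells (38.4 to 58.0), where the product of their separate shares was 41.4%. Neurog1 and Neurod1 shared 16.7% (10.2 to 25.1; product 11.7%), and 18 of the 20 cells with Neurog1 also held Neurod1. Sox2 and Neurod1 shared 13% (7.27 to 20.8; product 9.33%), and Sox2 and Neurog1 8.33% (3.88 to 15.2; product 2.74%). Insm1 and Hes6 shared 40.7%, near their product of 41.4%. The shares lay above the product for the pairs of Sox2, Neurog1 and Neurod1, but each interval except that of Sox2 and Neurog1 takes in its product. Without thinning, Sox2 and Neurog1 shared 29 of 110 control precursors (26.4%, 18.4 to 35.6), above a product of 14.3%. These precursors pool unlike clusters. Neurog1 and Sox2 were in 29 and 26 of 29 dividing, 19 and 8 of 60 Meis2-side, and 3 and 0 of 21 Bcl11b-side cells. The pooled products do not allow for this, and products within clusters were not computed. All 15 precursors with Foxn4 held Neurog1, Neurod1, Insm1, Hes6 and Sox11. In the P10 mutant Neurod1 and Insm1 shared 37.5% (product 30.5%) and Neurog1 and Neurod1 10.4% (product 8.2%), and in the 3-month mutant 33.3% (31.5%) and 16.7% (15.7%). Background cells held Neurod1 in at most 0.447% and Insm1 in at most 0.894% after the same thinning.

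**Figure D3:**
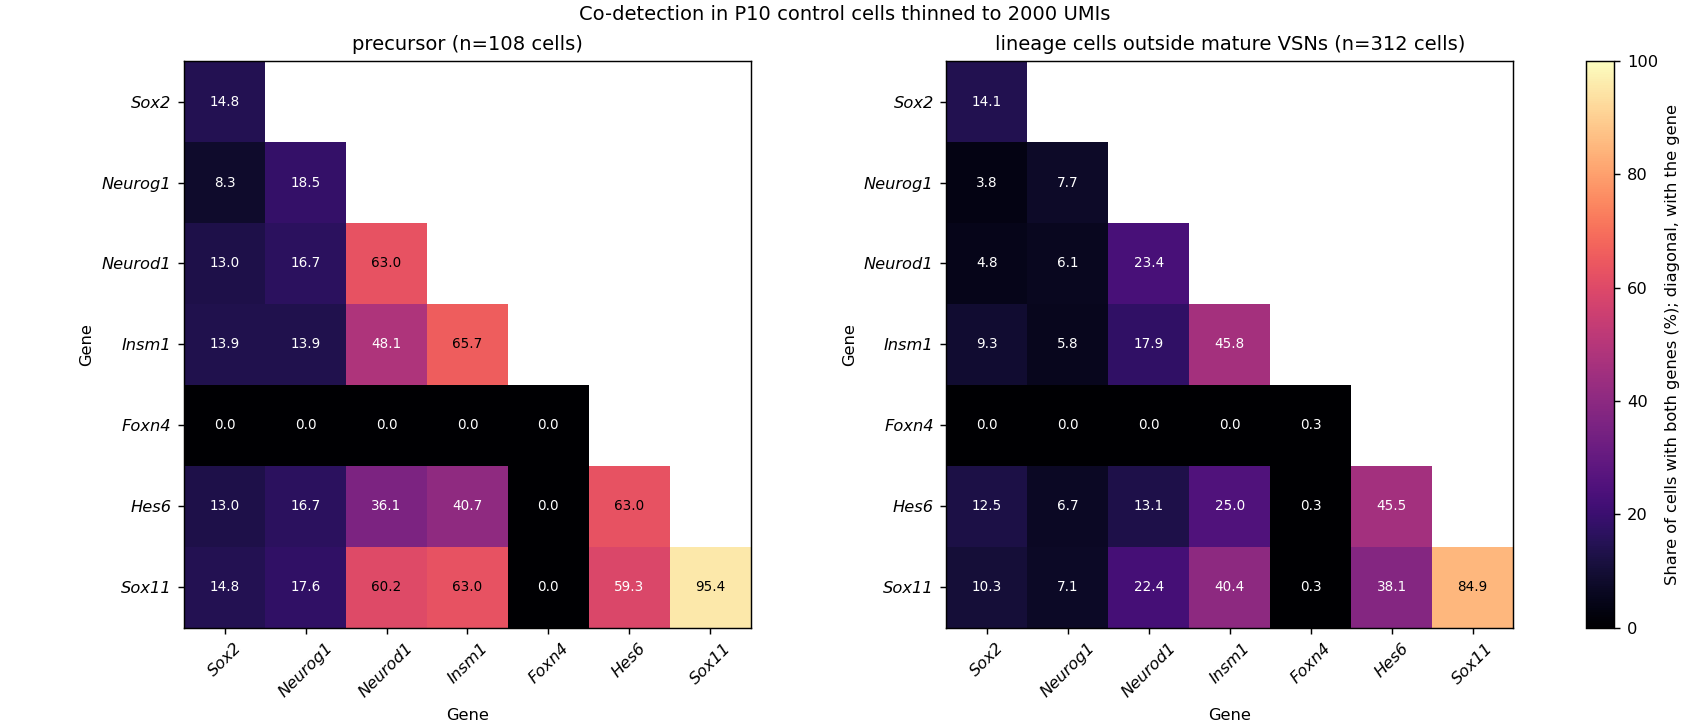
Share of P10 control cells (%, each thinned to 2000 UMIs) that held both genes of a pair, with the share holding 1 gene on the diagonal, for 108 precursors (left) and 312 lineage cells outside mature VSNs (right). Neurod1 and Insm1 share 48.1% of precursors, and Foxn4 has no pair since no thinned precursor kept its UMI.

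Mki67 and Gap43 were also read in the same cells. Of 16 thinned control precursors with Sox2, 43.8% held the division gene Mki67, against 6.52% of the others, and all 13 precursors with Mki67 held Insm1. Over 312 control lineage cells outside mature VSNs, Gap43, a growth protein of immature neurons, was found in 13.6% of cells with Sox2 and 56.3% of cells without.

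Outside the neuron lineage the factors differed widely in how specific they were. Of all Neurog1 UMIs in kept cells, 83.2%, 83.5% and 97.5% lay in the lineage in the P10 control, P10 mutant and 3-month mutant, and of Neurod1 UMIs 89.1%, 88.7% and 97.2%. For Sox2 the shares were 7.97%, 5.07% and 2.70%. Among named classes outside the lineage Sox2 was found in epithelium, with secretory epithelium at 425, 401 and 191 CPM, ciliated cells at 260, 276 and 330 CPM and basal epithelial cells at 113, 100 and 135 CPM. The name secretory epithelium is loose. Of its 517 control cells 443 lay in 1 cluster with no marker of that class among its 10 leading genes, which included Rian, Sult1e1 and Meg3. With the control clustered alone, a cluster of 452 cells with these 3 genes among its leading genes stayed unnamed. In the 3-month library 7114 of 9409 Sox2 UMIs lay in unnamed, mixed or other dividing clusters. One unnamed cluster of 342 cells, 335 of them in the 3-month library, led by Ugt2a2 and Cyp2a5, had Sox2 at 860 CPM there in 328 cells. Sox2 alone therefore does not mark a neuronal progenitor in these libraries. Foxn4 had 25 UMIs in 19 ciliated cells of the control (49.7 CPM, 32.1 to 73.3), and 3 and 2 UMIs in those of the P10 and 3-month mutants. Insm1 and Sox11 were also high in olfactory neurons, at 456, 723 and 286 CPM and at 664, 896 and 542 CPM. These classes held 56, 27 and only 7 cells. Hes6 was high in B cells of the P10 libraries, at 138 and 131 CPM.

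**Figure D4:**
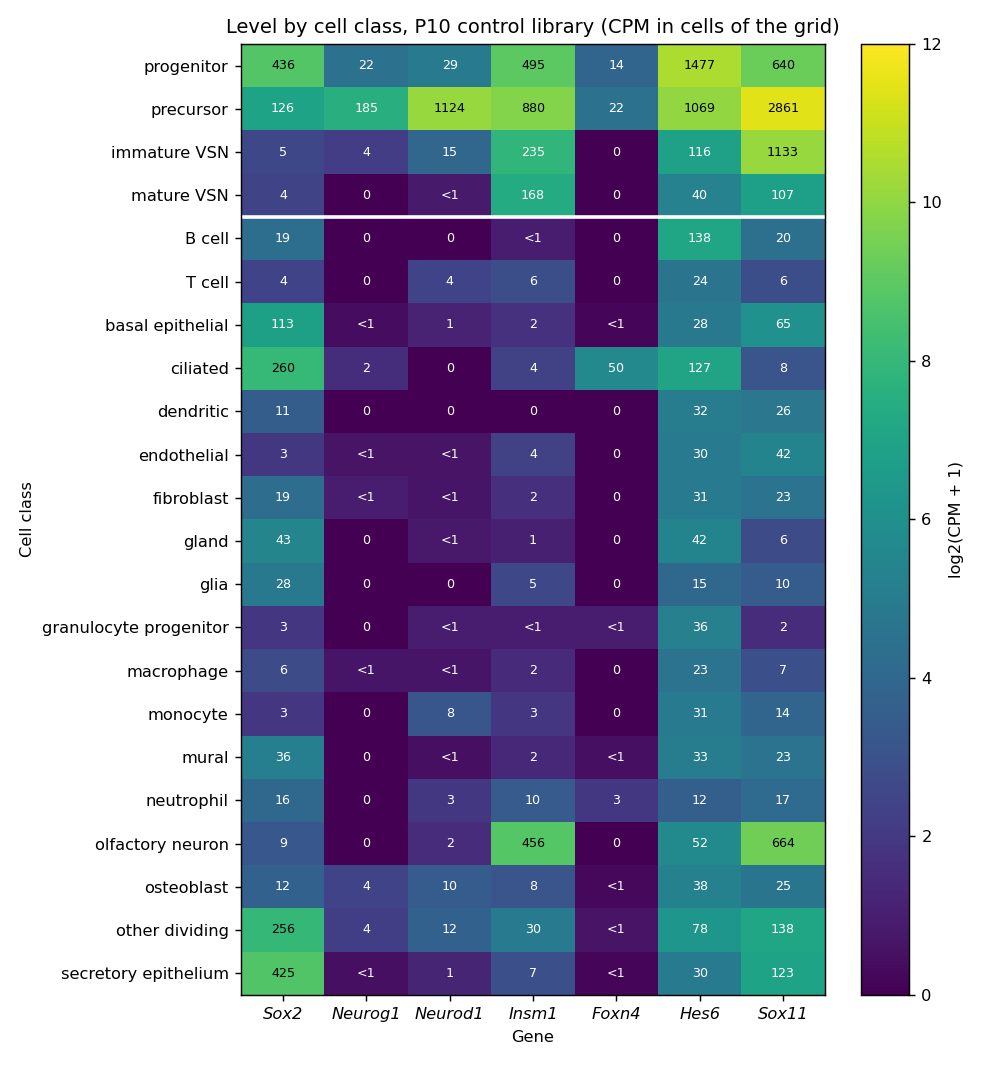
Level of each factor in the named cell classes of the P10 control library, as colour on a log2(CPM + 1) scale with the CPM written in each cell; a white line parts the vomeronasal neuron lineage (top 4 rows) from other cells. Neurog1 and Neurod1 are high in precursors alone, while Sox2 is also high in the class named secretory epithelium (425 CPM) and in ciliated cells (260 CPM).

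Genes with the most similar pattern were ranked by Pearson's r of log2(CPM + 1) over 61 pairs of cell class and library, among 10125 genes. These points share libraries and depth, so r is a description only. Nearest to Sox2 were Sox21 (0.90), Tmc4 (0.88) and Six3 (0.86), to Neurog1 Igfbpl1 (0.87), Clvs1 (0.84) and Scg2 (0.82), and to Neurod1 Clvs1 (0.89), St18 (0.88) and Tex14 (0.87). Insm1 was nearest to Dcx, Nol4 and Elavl4 (0.94 each) and Sox11 to Stmn2 (0.91), Pcdh8 (0.89) and Ypel1 (0.89). Dcx, Elavl4 and Stmn2 are genes of young neurons. Foxn4 was nearest to Mcidas (0.85), Tekt1 (0.82) and Katnal2 (0.81), of which Mcidas drives and Tekt1 builds motile cilia. Hes6 was nearest to Hdgf (0.84), Cep152 (0.84) and Polr3k (0.83). Among the members themselves Neurog1 and Neurod1 (0.89) and Insm1 and Sox11 (0.89) were closest, and Sox2 and Neurod1 (0.13) farthest apart.

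The P10 mutant was compared with the P10 control to see whether the genotype went with other levels at any stage. An unnamed cluster outside the lineage held 1 P10 control, 192 P10 mutant and 113 3-month mutant cells, with Tfap2e among its leading genes. Over all its cells Bcl11b plus Tfap2e was at 1010 CPM and Omp at 2.52 CPM. Whether these Tfap2e UMIs came from the transgene was not tested. Levels were compared in progenitors, precursors and mature VSNs and in immature clusters 4 and 7, since the immature class as a whole was not compared between libraries. Of 24 comparisons with enough UMIs, 4 passed 2-fold, all lower in the mutant, beside 3.65% of all genes and groups together that were lower and 6.77% in either direction. In precursors none of 7 passed (4.9% of all genes). Meis2-side cells made up 60 of 110 control and 16 of 49 mutant precursors, and Bcl11b-side cells 21 and 17. The ratios of mutant over control were 1.28 for Sox2 (1.01 to 1.62), 0.767 for Neurog1 (0.608 to 0.963), 0.797 for Neurod1 (0.727 to 0.872), 0.664 for Insm1 (0.595 to 0.740), 1.18 for Foxn4 (0.636 to 2.13), 0.976 for Hes6 (0.895 to 1.06) and 0.998 for Sox11 (0.947 to 1.05). Sox11 and Hes6 were thus close to even, with intervals that take in 1, and Insm1 was the lowest. Within clusters Insm1 was at 0.702 in dividing, 0.562 in Meis2-side and 1.07 in Bcl11b-side precursors, and Neurod1 at 0.867 and 0.979 in the first 2, with 12 against 7 UMIs on the Bcl11b side. None of 32 measured members of the neurogenesis list passed 2-fold in precursors either.

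In progenitors Neurog1 fell from 26 UMIs to none, for a ratio of at most 0.358. Neurod1 fell from 35 to none, for a ratio of at most 0.261 (3.29% of all genes were lower there). But the control UMIs came from 7 and 6 of 48 cells. Sox2 (1.19), Hes6 (0.943) and Sox11 (1.01) were close to even in the same progenitors, and Insm1 was at 0.729 (0.615 to 0.861). At the study's limit of 5% mitochondrial UMIs only 10 of 48 control and 1 of 25 mutant progenitors remained. In immature cluster 4 (67 and 22 cells) Neurod1 had 29 UMIs against 1, for a ratio of 0.112 (0.00274 to 0.674), and Hes6 111 against 14, for 0.409 (0.216 to 0.715), beside 4.91% of all genes lower. Without the control cell with the most UMIs these were 0.139 and 0.474. Insm1 in that cluster went the other way, at 1.58 (1.22 to 2.03), with Sox11 at 1.03 (0.914 to 1.15). Cluster 7 (36 and 17 cells), with none of 3 past 2-fold (7.04% of all genes), had Insm1 at 0.871, Hes6 at 1.02 and Sox11 at 1.07. In mature VSNs none of 3 passed (6.55% of all genes), with Insm1 at 0.555 (0.451 to 0.678), Hes6 at 1.01 (0.715 to 1.43) and Sox11 at 1.47 (1.23 to 1.77).

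The 3-month and P10 mutants were compared to see how the factors differed with age. Here 6 of 18 comparisons with enough UMIs passed 2-fold, beside 13.9% of all genes and groups. Precursors of the 3-month mutant (18 cells) had Neurod1 at 3039 CPM against 895 CPM, 3.39-fold higher (3.05 to 3.77), and Neurog1 at 292 against 142 CPM, 2.05-fold higher (1.50 to 2.80), beside 4.3% of all genes higher. Without the cell with most UMIs the ratios were 3.18 for Neurod1 and 1.62 for Neurog1. Both turned when each library was clustered on its own, at 0.799 and 0.639. The Bcl11b-side cluster, low in both genes, held 1 of the 18 precursors against 17 of 49 at P10. In dividing precursors (6 and 16 cells) Neurod1 was at 3753 against 1376 CPM and Neurog1 at 478 against 307 CPM. In Meis2-side precursors alone Neurod1 was 2.28-fold higher (1.90 to 2.73; 4.22% of all genes). The other factors in precursors lay within 2-fold: Sox2 at 1.56 (1.13 to 2.14), Insm1 at 0.853, Foxn4 at 0.631 (0.156 to 1.90), Hes6 at 0.828 and Sox11 at 1.08. Progenitors were within 2-fold for all 4 factors with enough UMIs (12.9% of all genes were not), with Sox2 at 1.24, Insm1 at 0.750, Hes6 at 0.915 and Sox11 at 1.16.

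In mature VSNs Sox11 was 0.0891 times the P10 level (0.0500 to 0.148) and Insm1 0.151 times (0.0838 to 0.255), beside 7.55% of all genes lower. Without the cell with most UMIs they were 0.105 and 0.172. Hes6 was at 0.659 (0.408 to 1.05). The mature cells of the 2 ages came from unlike clusters, mostly 5, 9 and 2 at P10 and cluster 27, found in the 3-month library alone, at 3 months. In the Meis2-side cluster 5 of the P10 mutant Sox11 was at 116 CPM and Insm1 at 103 CPM, in the Bcl11b-side cluster 2 at 111 and 83.6 CPM, and in cluster 27 of the 3-month mutant at 12.2 CPM each. Sox11 in background cells moved the same way, from 24.6 to 2.06 CPM, and Insm1 there from 1.38 to 0.688 CPM, and their part was not tested. Sox2 was 4.11-fold higher (1.45 to 14.2; 4.93% of all genes), but 11 of its 17 UMIs came from 1 cell, without which the ratio was 1.49. Of the 17 UMIs, 14 lay in cluster 22, where 3 of 4 cells were marked as doublets, and with doublets left out the ratio turned to 0.754. Insm1 was also lower in immature cluster 4 (19 and 22 cells), at 72.1 against 352 CPM, a ratio of 0.205 (0.108 to 0.361), beside 8.37% of all genes lower, while Hes6 (1.40) and Sox11 (1.10) did not pass.

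**Figure D5:**
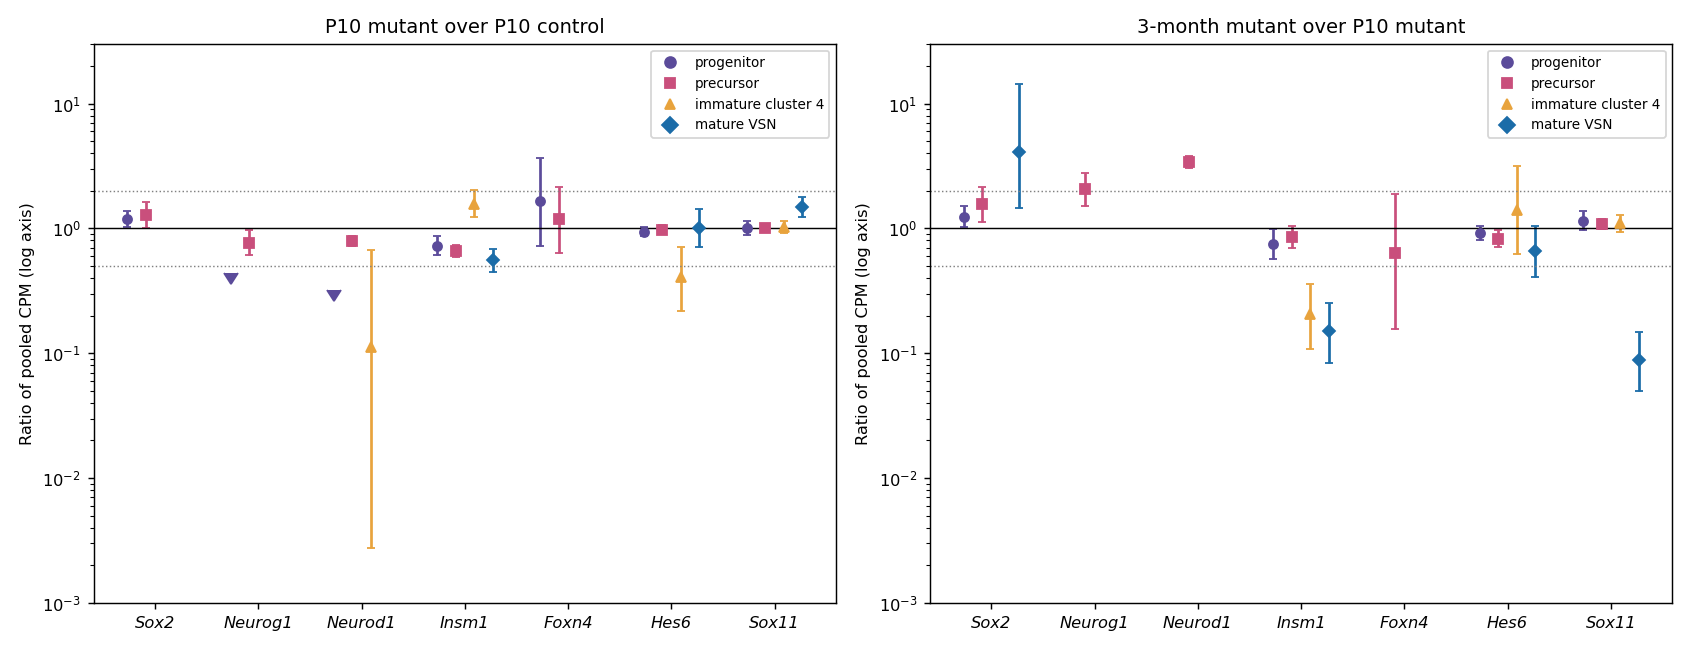
Ratio of pooled CPM (log axis) between libraries for each factor and stage with at least 20 UMIs, P10 mutant over P10 control (left) and 3-month mutant over P10 mutant (right), with exact 95% intervals of counting error; dotted lines mark 2-fold and downward triangles are upper limits where the mutant had no UMI. At P10 the precursor points lie between 0.664 and 1.28, and with age Sox11 in mature VSNs is lowest at 0.0891.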

How the data were processed

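Deposited files were filtered gene-by-barcode matrices of raw UMI counts, made by the authors with Cell Ranger 4.0.0 (both P10 libraries) or 6.0.1 (3-month mutant), per the file headers. The submitters' processing notes also name bcl2fastq and Seurat 3.2.3, and the genome was mm10. Of these 3 libraries the study's methods cover the control alone. The study gives a limit of 5% mitochondrial UMIs for its adult data, which are not used here. Applied to the P10 control, P10 mutant and 3-month mutant, that limit kept 1576, 1275 and 4541 cells. Counts were used as deposited.

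Cells were clustered with scanpy 1.11.5 and leidenalg 0.10.2 (values normalised to 10000 UMIs, 2000 variable genes with library as batch, 30 components, 20 neighbours, resolution 1), and the lineage clusters again with 15 components at resolution 2, without genes that followed division (r over 0.2). The lineage resolution was set after clusters were seen. The 7 members, the neurogenesis list (except for class markers), Tfap2e and vomeronasal receptor genes were left out. Clusters were named from markers of each class, and 43 to 101 mixed and 651 to 2173 unnamed cells per library entered no class. A rebuilt name may differ from the study's. A doublet caller marked 3, 1 and 0 barcodes and had not worked. As an alternative 184, 125 and 388 cells were left out, at 0.8% per 1000 barcodes. Group sums were compared as ratios with conditional exact binomial intervals (scipy 1.17.1), which was tested on simulated data. Where 1 group had no UMI, a ratio given as at least or at most is the limit of that interval. The CPM that a group without UMIs allows is that of 3 UMIs in it. Thinning used seed 1. Members and lists were chosen with earlier results of these data known. Genes named are the 7 members, the 3 nearest genes of each (at least 50 CPM in a group of at least 10 cells) and the 6 genes of the neurogenesis list with the largest ratio of precursors to immature VSNs in the control, of which 1 is not reported here. Alternatives were the 5% limit, doublets left out, classes from marker detection, each library clustered alone, the mean of CPM over cells, cells under 2000 UMIs left out, thinning to 2000 or 1000 UMIs, 20 other thinning draws, a fold of 3, a minimum of 50 UMIs and Tfap2e alone as the basal marker. Values without the cell with most UMIs and branches without dividing cells were added after the data were seen. Promoters and positions are from RefSeq GRCm38.p6 and the GRCm38 annotation.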

Additional observations from a re-analysis of the deposited data

How the results depend on the processing

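Of 150 counts recomputed under an alternative, 127 stayed within 1.5 times the reported count and 23 did not. Of 538 single ratios, 357 stayed within their interval, 172 left it and 9 changed direction. All 7 factors were highest in progenitors or precursors under each alternative that gave this count, which has no share of all genes beside it. The exception was 6 of 7 in each library with classes from marker detection. The P10 mutant clustered alone gave no such count. At a 5% mitochondrial limit the members past 2-fold at P10 between genotypes went from 4 to 2, the precursor pairs of the control to 6, the lineage pairs to 4 (control) and 3 (P10 mutant), and the apical and basal immature count to 0. With classes from marker detection the control had 4 factors higher in precursors and 3 unequal by division, both P10 libraries had 5 higher in immature than mature VSNs, the P10 mutant had 2 unequal by division and 0 differed by genotype. Under it Sox11 of precursors over immature VSNs reversed to 0.770, 0.914 and 0.987, Hes6 by division in the control to 0.847 and Insm1 in the P10 mutant to 0.794. With each library clustered alone, which gave no progenitor class, the 3-month lineage pairs went to 13, Neurod1 by division in the P10 mutant to 0.973, and Neurog1 and Neurod1 in 3-month over P10 mutant precursors to 0.639 and 0.799. Without doublets Sox2 in 3-month over P10 mutant mature VSNs went to 0.754. Thinned to 2000 UMIs, 3 factors were higher in P10 mutant precursors, 1 in 3-month immature VSNs, 1 passed by genotype, 3 by age and 0 between apical and basal cells. The minimum of 20 UMIs still applied to the thinned counts, so fewer factors could be counted. A fold of 3 left 2 by division in the P10 mutant, and 50 UMIs left 1 by genotype. Thinned to 1000 UMIs, precursor pairs went to 9 in the control and 8 in the 3-month mutant and 3-month lineage pairs to 5, and over 20 other draws those reached 14. The causes were not tested. The apical and basal count gave no value in the 3-month mutant. No paired analysis was possible because each group has 1 library, and leaving out a library leaves no group. The 3-month mutant had 10 progenitors and 18 precursors, which limits its values.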
